A study of Mus musculus with 12 samples.

Results

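Pax3, Pax7, Msx1, Msx2, Msx3, Olig3, Lmx1a and Atoh1 are transcription factor genes of the dorsal neural tube and its roof plate, and their transcripts were followed along the posterior neural tube of the mouse embryo. The 8 genes were chosen by name from 18193 genes that at least 1 probe set of the array names alone. Earlier results of these data were known when they were chosen. Of the 34945 probe sets that name 1 gene alone, 13 belong to these genes. Of the 13, 3 belong to Pax3, 2 each to Pax7, Msx1 and Msx2, and 1 each to Msx3, Olig3, Lmx1a and Atoh1. The tissue came from 2 embryos of the outbred strain CD1 at embryonic day 9.5. The tube was freed from surrounding tissue after a 1 min pancreatin treatment (2 mg/ml) and cut into 6 pieces, numbered part 1 to part 6, and each piece was measured on 2 Affymetrix arrays labelled replicate 1 and replicate 2, which gives 12 arrays. No group carries a mutation and none differs in treatment, so all comparisons are between pieces of the same tubes. The labels do not say which end of the tube part 1 is, so pieces are given by number.

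In the neural tube, BMP and Wnt proteins from the overlying ectoderm and then from the roof plate, the strip of cells along the dorsal midline, set up the dorsal side. Pax3 and Pax7, paired-box factors, mark broad dorsal progenitor territory, and the Msx homeobox genes are known as BMP-responsive genes of the dorsal midline, Msx3 being restricted to the dorsal neural tube in the mouse. Olig3, a bHLH factor, marks the dorsal-most progenitors, Atoh1 the bHLH progenitors nearest the roof plate, and Lmx1a, a LIM homeobox factor, the roof plate itself. Several of these genes are also used outside the neural tube, Pax3 and Pax7 in somites, and Msx1 and Msx2 in ectoderm and mesoderm.

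The 8 genes did not share a course along the tube. Pax3 and Msx3 were higher at higher part numbers, Olig3 was near 0 in part 1 and highest in part 4, and the Pax7 probe set that could be tested was high only in parts 1 and 6. The 2 probe sets of Msx1 were lowest in the middle pieces, a difference at the edge of the threshold in a contrast chosen after these values were seen. The F test did not call Msx1. Msx2 showed no difference that passed a test, and Lmx1a and Atoh1 were at or under the typical signal of an array on nearly every array. A piece is a mixture of cells, so fewer cells of a type and less RNA per cell cannot be told apart in any of these values.

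The deposited values are linear signals, 1 per probe set and array, and array medians ran between 16.7 and 19.1. A signal at or under that level may be background, and its order among pieces is not read here. A probe set was tested when its signal lay above the median of its array on at least 2 arrays, which 7 of the 8 genes met with 1 or more probe sets (11 of 13 probe sets). Pax7 met it only through parts 1 and 6 and Atoh1 only through part 3, so these 2 genes had to differ somewhere to be tested at all. Differences are given as log2(signal + 4.43), which understates the change of dim genes, with SE from limma and p-values adjusted by Benjamini-Hochberg over the 12089 genes tested, and a gene is called at an adjusted p under 0.05.

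**Figure D1:**
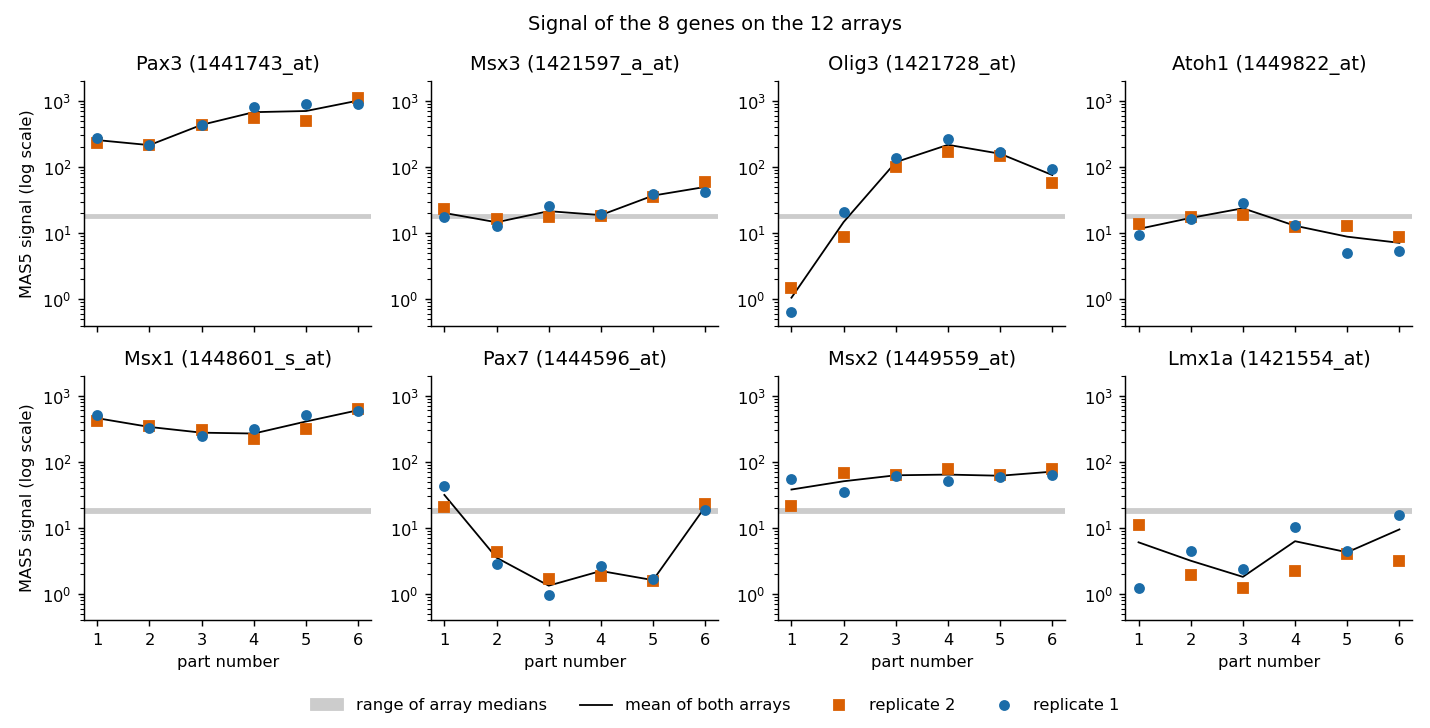
Signal of each gene (log scale) against part number, with the 2 arrays of each piece as points, their mean as a line, and the range of array medians (16.7 to 19.1) as a grey band; the probe set with the highest mean is shown. Pax3 reaches 911 and 1112 in part 6, Olig3 peaks in part 4, Pax7 lies far below the band in parts 2 to 5, and Lmx1a stays below the band on every array.

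Along the part number, 3 of the 8 genes rose (Pax3, Msx3 and Olig3) and 0 fell, 4 did not pass and Lmx1a was not tested. By limma, 5.66% of all genes tested rose and 7.08% fell, and 4 of the 7 tested members had an unadjusted p under 0.05. The F test among the 6 pieces, which assumes no straight line, called 4 of the 8 (Pax3, Pax7, Msx3 and Olig3), against 4.91% of all genes. Between part 6 and part 1, 3 were higher in part 6 (Pax3, Msx3 and Olig3), against 4.17% of all genes, and 0 were lower in part 6, against 4.92% of all genes, with an unadjusted limma p under 0.05 in 4 of the 7. The median slope of the 7 tested genes was 0.16 log2 per part, and that of all genes was -0.01. The members were chosen with earlier results of these data known, so the shares of all genes give scale and do not test the set.

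Pax3 had the clearest gradient. On its brightest probe set (1441743_at) the signals were 279 and 232 in part 1, 212 and 217 in part 2, 434 and 435 in part 3, 798 and 555 in part 4, 905 and 503 in part 5, and 911 and 1112 in part 6. Both arrays of parts 3 to 6 lay above all 4 arrays of parts 1 and 2, and no array of part 6 lay below any array of another piece. Parts 4 and 5 overlapped, their means being 676 ± 172 and 704 ± 285 (SD, n = 2 each), and replicate 1 was the higher of the pair in both. The slope was 0.44 ± 0.056 log2 per part (limma adjusted p = 0.00019), and part 6 exceeded part 1 by 1.97 ± 0.28 log2, with a mean of 1012 ± 142 in part 6 and 255 ± 33.5 in part 1.

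The other 2 probe sets of Pax3 gave the same direction. On 1420389_at the means were 183 ± 6.31, 195 ± 9.36, 291 ± 5.14, 365 ± 87.5, 374 ± 108 and 472 ± 113 in parts 1 to 6 (SD, n = 2), and on 1430335_a_at they were 50.5 ± 17.2, 59.7 ± 1.98, 92.5 ± 2.14, 111 ± 4.09, 129.8 ± 52.4 and 165 ± 1.56. In a fit over all 21679 kept probe sets, where 8.93% were called by slope, their slopes were 0.28 ± 0.041 (limma adjusted p = 0.000804) and 0.33 ± 0.043 (0.000283). No single step between neighbouring pieces passed for Pax3, the largest being 1.00 ± 0.28 log2 for part 3 over part 2 (limma adjusted p = 0.497). The embryos ran alike, with slopes of 0.43 in replicate 2 and 0.44 in replicate 1. Its F test lost the call without replicate 1 of parts 1 and 2 (limma adjusted p = 0.0654).

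Msx3 also rose with part number. Its signals (1421597_a_at) were 17.3 and 23.1 in part 1, 12.9 and 16.3 in part 2, 25.7 and 17.3 in part 3, 19.6 and 17.9 in part 4, 39.0 and 35.0 in part 5, and 41.5 and 58.5 in part 6. Parts 1 to 4 lay around the array median, and their order is not read. Both arrays of part 6 lay above both of part 5, and these above all 8 arrays of parts 1 to 4. The slope was 0.25 ± 0.056 log2 per part (limma adjusted p = 0.00894) and part 6 exceeded part 1 by 1.14 ± 0.23 log2 (0.0148), with means of 50.0 ± 12.1 in part 6 and 20.2 ± 4.04 in part 1.

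The calls for Msx3 depended on single arrays or pieces. Without both arrays of part 6 the slope was 0.18 (limma adjusted p = 0.163), and the F test (0.0216 with all arrays) lost its call without any 1 of 5 arrays, from 0.0509 to 0.0932, the highest without replicate 2 of part 6. The difference between the ends lost its call without that array (0.125) or without replicate 1 of part 1 (0.0567).

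Olig3 had the largest slope and the largest difference between the end pieces of the 7 genes tested, and its maximum lay inside the tube. Its signals (1421728_at) were 0.635 and 1.48 in part 1, 20.6 and 8.85 in part 2, 137 and 100.2 in part 3, 262 and 172 in part 4, 171 and 147 in part 5, and 94.3 and 57.1 in part 6. In the order of the means, parts 4, 5, 3, 6, 2 and 1, no neighbouring pieces overlapped. Parts 4 and 5 nearly touched, at 171.7 in replicate 2 of part 4 and 171.3 in replicate 1 of part 5. The steps to part 4, 0.83 ± 0.35 log2 over part 3, and to part 5, -0.41 ± 0.35 against part 4, did not pass by limma. The step to part 3 was called, at 2.74 ± 0.35 log2 over part 2 (limma adjusted p = 0.0207), where 0.091% of all genes were called as higher. The step to part 2, 1.74 ± 0.35 log2 over part 1, did not pass (limma adjusted p = 0.109), and neither did the step to part 6, -1.06 ± 0.35 against part 5 (1).

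The F test of Olig3 had a limma adjusted p of 0.000111, the smallest among the 8 genes, and part 6 exceeded part 1 by 3.83 ± 0.35 log2 (0.000176), with means of 75.7 ± 26.3 in part 6 and 1.06 ± 0.595 in part 1. Both arrays of part 1 were under the offset of 4.43, so the size of that difference depends on the offset, from 2.40 log2 with an offset of 16 to 5.21 with an offset of 1. The maximum fell in part 4 in both embryos. The slope, 0.84 ± 0.20 log2 per part (limma adjusted p = 0.0155), assumes a straight course and lost its call without replicate 1 (0.0678) or replicate 2 (0.0604) of part 1. It was 0.46 (0.328) without both arrays of part 1 and 1.34 without both arrays of part 6, the lowest and highest of all alternatives. The step to part 3 lost its call without any 1 of 5 arrays (adjusted p up to 0.184, without replicate 1 of part 3), without both arrays of part 1 (0.0563), with no filter (0.0568) and with an offset of 1 (0.0532).

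**Figure D2:**
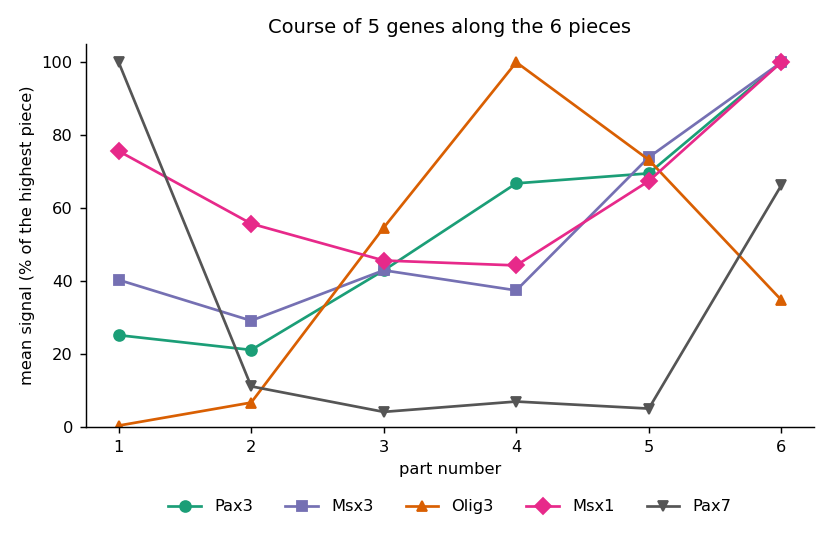
Mean signal of 5 genes in each piece (n = 2 arrays) as a percentage of the gene's highest piece, against part number. Pax3 and Msx3 reach their maximum in part 6, Olig3 in part 4 with 34.9% of it left in part 6, and Msx1 and Pax7 dip in between, Msx1 to 44.4% in part 4 and Pax7 to 4.24% in part 3.

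The courses of Msx1 and Pax7 prompted a further contrast, chosen after their values were seen: the mean of parts 1 and 6 minus the mean of parts 3 and 4. It was not planned for any gene. Its p-values and calls are therefore descriptive for every member, Olig3 included, and the share of all genes called is no yardstick for them. In this contrast 1 of the 8 genes was called higher at the ends (Pax7), against 0.455% of all genes, and 1 lower (Olig3), against 0.579% of all genes, at -2.98 ± 0.25 log2 (limma adjusted p = 0.00126). The Olig3 value averages unlike ends, part 1 with 0.635 and 1.48, both under the offset, and part 6 with 94.3 and 57.1. Over the alternatives it ran from -3.70 to -2.16 log2.

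Msx1 was high throughout and lower in the middle. On its brighter probe set (1448601_s_at) the signals were 503 and 413 in part 1, 327 and 348 in part 2, 246 and 307 in part 3, 312 and 224 in part 4, 507 and 309.5 in part 5, and 585 and 625 in part 6. All 4 arrays of parts 1 and 6 (413 to 625) lay above all 4 of parts 3 and 4 (224 to 312), whereas part 5 overlapped both parts 1 and 2. The dimmer probe set (1417127_at) was also lower in the middle, with 51.0 to 77.8 in parts 1 and 6 and 28.0 to 36.6 in parts 3 and 4. The probe sets differed in their highest piece in both embryos, part 6 on the brighter and part 1 on the dimmer. On the dimmer, part 6 minus part 1 was -0.17 ± 0.25 log2 and was not called by limma. The ends exceeded the middle by 0.95 ± 0.18 log2 (limma adjusted p = 0.0505), just short of the threshold, and by 0.84 ± 0.18 for the dimmer probe set (0.0888 in the fit over all probe sets). With the embryo as a block the adjusted p for the brighter probe set was 0.0428, and over all alternatives it ran between 0.0195 and 0.178. The F test did not call Msx1 (limma adjusted p = 0.122), nor did the slope (0.08 ± 0.073, 0.56) or part 6 over part 1 (0.40 ± 0.26, 0.403).

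Pax7 was low, and its 2 probe sets disagreed. On 1444596_at the signals were 42.8 and 20.5 in part 1, 2.83 and 4.28 in part 2, 0.979 and 1.70 in part 3, 2.62 and 1.85 in part 4, 1.70 and 1.55 in part 5, and 18.6 and 23.3 in part 6. Both arrays of parts 1 and 6 lay above the median of their array and all 8 arrays between them were under the offset of 4.43. Parts 1 and 6 overlapped, and replicate 1 had its maximum in part 1 whereas replicate 2 had it in part 6. The ends exceeded the middle by 2.25 ± 0.19 log2 (limma adjusted p = 0.00126, and 0.00885 when all probe sets were tested without a filter). Since parts 2 to 5 were under the offset, the size of that difference is set by the offset, from 1.22 log2 with an offset of 16 to 3.25 with an offset of 1. The F test had an adjusted p of 0.0011 with the filter, which Pax7 passed only through its high pieces, and 0.00544 over all probe sets without it. The step to part 2, -2.11 ± 0.27 log2 against part 1, was called with the filter (0.0197), where 0.0827% of all genes were called as lower. Part 6 exceeded part 5 by 2.06 ± 0.27 log2, which did not pass (0.0712). The step to part 2 was not called when genes were tested without a filter (0.0508) or without either array of part 2 (0.0961 without replicate 1 and 0.0857 without replicate 2). The slope of Pax7, -0.09 ± 0.17 (0.792), passed without part 6 at -0.53 (0.0419), and part 6 against part 1, -0.44 ± 0.27 (0.387), passed without replicate 2 of part 1 at -0.90 (0.0304).

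The second Pax7 probe set, 1452510_at, was 19.6 and 8.20 in part 1 and 6.39 and 5.25 in part 6, with 0.471 to 9.32 in parts 2 to 5. It lay above the array median on 1 of 12 arrays and was not tested with the filter. Without a filter its difference between ends and middle was 0.87 ± 0.37 log2 (limma adjusted p = 0.649). The high ends of Pax7 thus rest on 1 probe set, whose highest signal was 42.8.

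Markers of other tissues also differed between the pieces, and several of them were highest in part 1. The summed signal of 8 tested presomitic and somite mesoderm genes, such as the clock gene Hes7, was 3125 and 1417 in part 1, 2586 and 842 in part 2 and 146 and 148 in part 6, and that of 9 surface ectoderm genes, such as the keratin Krt8, was 1324 and 498 in part 1, 565 and 832 in part 2, and 363 and 439.7 in part 6. Of these, 4 mesoderm and 6 ectoderm genes fell with part number and 0 rose. The ectoderm sum in part 6 held much Tfap2c, which did not pass by slope, with means of 124 in part 1 and 247 in part 6. Between these pieces the mean of Krt8 went from 299 to 33.5 and that of Epcam from 110 to 9.65. Of the somite genes, Tcf15, Meox1, Foxc1 and Foxc2 passed the filter and had their highest means in part 2 (124, 56.1, 85.2 and 92.9). The F test called Tcf15 (limma adjusted p = 0.0482) but not Meox1, Foxc1 or Foxc2, and the 2 arrays of part 2 were far apart in mesoderm sum. Pax1, Meox2, Uncx, Tbx18 and the muscle gene Myf5 did not pass the filter. Of 9 lateral plate and limb genes 6, among them Prrx1, Tbx5 and Hand2, did not pass it, and of the other 3 limma called 0 by slope, 0 having an unadjusted p under 0.05. Without replicate 1 of parts 1 and 2, the arrays with the most mesoderm signal, the difference between ends and middle was 2.02 log2 for Pax7 (limma adjusted p = 0.00305) and 0.88 for Msx1 (0.116), and the difference of Pax7 between part 6 and part 1 was 0.02 there and -0.44 with all arrays. The arrays of parts 1 and 2 left in that fit still held mesoderm sums of 1417 and 842. The part of these tissues in the signals was not tested.

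**Figure D3:**
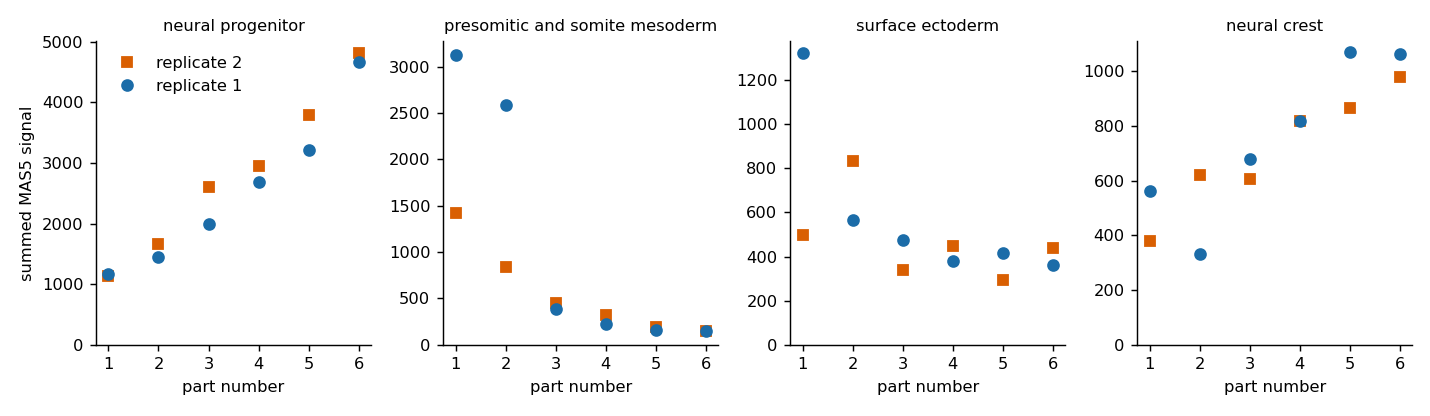
Summed signal of the tested markers of 4 tissues (linear scale) on each array against part number, by replicate. Neural progenitor markers climb to 4656 and 4819 in part 6, mesoderm markers are highest in replicate 1 of parts 1 and 2 (3125 and 2586), surface ectoderm markers are highest in replicate 1 of part 1 (1324), and neural crest markers run between 332 and 1072. Among the crest markers, Cdh6 alone had means of 97.0 in part 1 and 690 in part 5.

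To put letters beside these courses, the 250 bases before the transcription start of the 4 members that changed or were nearly called and have an entry in the RefSeq promoter table (GRCm38.p6; 7 of the 8 members matched) are shown, 5′ to 3′ on the gene's strand. Capitals mark E-boxes (CANNTG, the site of bHLH factors such as Olig3 and Atoh1) and TATAAA, both searched on both strands.
Olig3, chr10:19356289-19356538, plus strand: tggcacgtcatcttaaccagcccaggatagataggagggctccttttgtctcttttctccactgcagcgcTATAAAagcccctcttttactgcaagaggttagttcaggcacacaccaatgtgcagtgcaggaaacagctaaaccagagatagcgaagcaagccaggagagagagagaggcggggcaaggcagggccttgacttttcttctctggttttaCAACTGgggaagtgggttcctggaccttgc
Msx1, chr5:37824586-37824835, minus strand: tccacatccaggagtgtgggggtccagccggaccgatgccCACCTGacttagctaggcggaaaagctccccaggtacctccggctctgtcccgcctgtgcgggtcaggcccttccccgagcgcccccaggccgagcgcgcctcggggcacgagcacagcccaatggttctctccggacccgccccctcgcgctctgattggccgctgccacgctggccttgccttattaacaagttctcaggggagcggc
Msx3, chr7:140049089-140049338, minus strand: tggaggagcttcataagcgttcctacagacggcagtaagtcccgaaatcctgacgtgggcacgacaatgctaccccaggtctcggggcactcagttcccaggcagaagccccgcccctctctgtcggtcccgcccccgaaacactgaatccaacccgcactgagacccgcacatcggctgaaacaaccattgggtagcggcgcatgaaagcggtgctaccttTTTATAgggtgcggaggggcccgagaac
Pax7, chr4:139832969-139833218, minus strand: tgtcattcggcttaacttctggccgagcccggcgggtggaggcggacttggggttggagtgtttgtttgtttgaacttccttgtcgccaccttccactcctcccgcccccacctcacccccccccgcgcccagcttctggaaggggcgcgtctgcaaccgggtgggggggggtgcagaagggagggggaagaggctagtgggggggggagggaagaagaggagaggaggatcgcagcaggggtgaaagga

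Olig3, the gene with the largest change, held 1 E-box 30 bases before the start and 1 TATAAA 180 bases before it. Msx1 held 1 E-box, Msx3 held TATAAA on the opposite strand 28 bases before the start, and Pax7 held neither. E-boxes occurred in 66.2% and TATAAA in 12.4% of all 32851 promoter windows of this length, and no marked E-box overlapped a marked TATAAA. The homeodomain motif TAATTA, in 4.84% of all windows, was found in none of these 4 windows and once in that of Msx2. GGCGCC, a BMP-SMAD motif found in 9.59% of all windows, was in none of the 7 members' windows, and CTTTGA, a TCF motif found in 13.8%, was in that of Atoh1 only, in 2 copies.

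Msx2 gave no call. On its brighter probe set (1449559_at) the signals were 54.5 and 21.9 in part 1, 34.7 and 67.1 in part 2, 61.7 and 63.7 in part 3, 51.0 and 77.4 in part 4, 59.8 and 63.6 in part 5, and 63.4 and 78.9 in part 6. Neighbouring pieces overlapped throughout, and the 2 arrays of part 1 and of part 2 were the furthest apart. The slope was 0.16 ± 0.060 log2 per part (limma adjusted p = 0.103) and the difference of part 6 over part 1 was 0.93 ± 0.39 (0.188). That difference passed without replicate 1 of part 1, at 1.52 (0.039), the array with the highest surface ectoderm and mesoderm sums, whose part in the result was not tested. Without replicate 2 of part 1 it was 0.35 (0.585) and the slope 0.085 (0.298), so single arrays of part 1 set these values. The dimmer probe set (1438351_at, 6.90 to 34.2) had a slope of 0.03 ± 0.076.

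Atoh1 and Lmx1a stayed near or under the array median. Atoh1 (1449822_at) had 9.51 and 13.6 in part 1, 16.2 and 17.8 in part 2, 28.7 and 18.9 in part 3, 13.4 and 12.5 in part 4, 5.02 and 12.7 in part 5, and 5.44 and 8.83 in part 6. The highest piece was part 3 in both embryos, the only piece with arrays above the median, but neither the F test (limma adjusted p = 0.171) nor the slope (-0.15 ± 0.070, 0.188) passed. Without both arrays of part 1 the slope was -0.29 and passed (0.0385). Lmx1a (1421554_at) ran between 1.22 and 15.9 over the 12 arrays, under the array median on each, and its 2 arrays were far apart in parts 1 (1.22 and 10.9), 4 (10.4 and 2.22) and 6 (15.9 and 3.16). Tested without a filter, its slope was 0.10 ± 0.093 (limma adjusted p = 0.685). At these signals neither the presence nor the absence of Lmx1a transcripts could be read from the arrays.

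**Figure D4:**
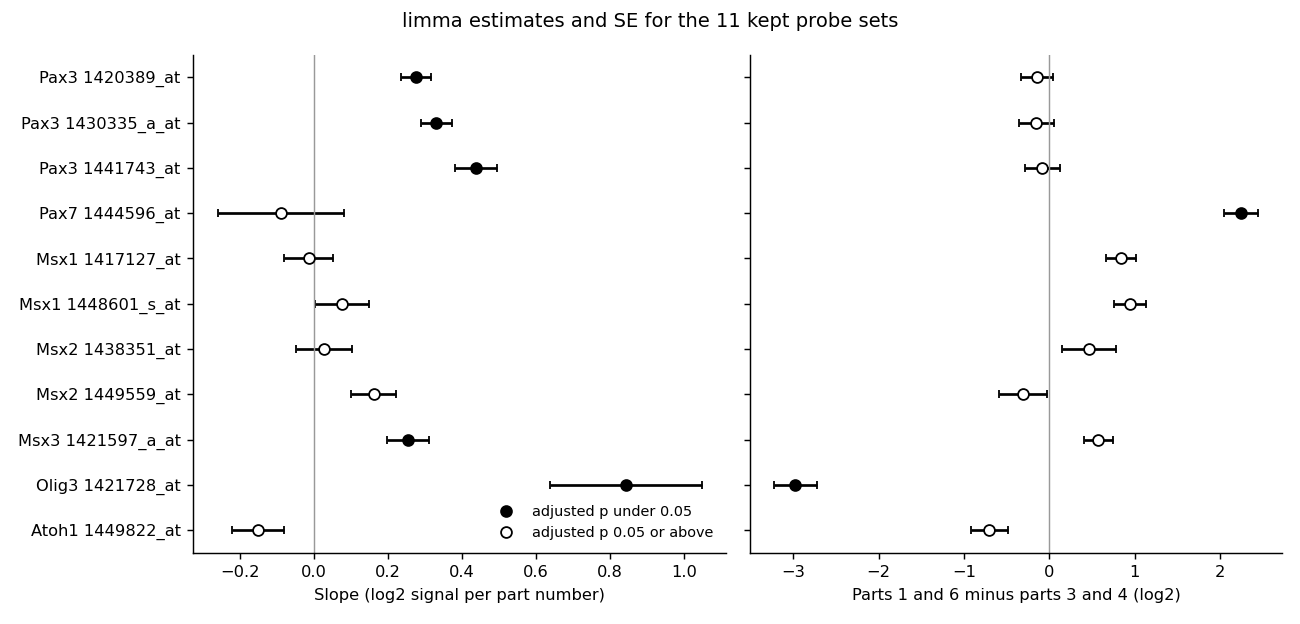
Slope per part number (left) and difference of parts 1 and 6 over parts 3 and 4 (right), in log2 with SE, for the 11 kept probe sets in the fit over all probe sets; filled points have an adjusted p under 0.05. The 3 Pax3 probe sets, Msx3 and Olig3 have filled slopes, and on the right Pax7 (2.25) and Olig3 (-2.98) lie on opposite sides of 0.

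The members varied among themselves. Across the 12 arrays, which share 2 embryos and 6 pieces, Pearson's r between the log2 signals of the 7 tested genes ran from -0.76 (Msx1 with Atoh1) to 0.77 (Pax3 with Msx3) over 21 pairs, with a median of -0.03. Atoh1 lay above the array median on 2 of the 12 arrays, so its r with Msx1 rests mostly on low signals whose order is not read here. Msx1 and Pax7 had an r of 0.75, and Pax7 and Olig3 of -0.66. For 0 of the 7 genes was a slope difference between the embryos called (limma adjusted p of 0.788 or more, and 0 with an unadjusted p under 0.05), where 0% of all genes were called, 798 having an unadjusted p under 0.05.

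The genes most like each member over the 12 arrays were found by the highest Pearson r among tested genes with a named symbol. For Pax3 they were Gadd45a (0.96), a stress-response gene, Arhgef26 (0.95) and Srgap3 (0.95), a GTPase-activating protein of Slit-Robo signalling. For Olig3 they were Fam20c (0.98), a secretory pathway kinase, Slc22a23 (0.97) and the Polycomb gene Pcgf5 (0.97). For Msx3 they were B3gat1 (0.94), which makes the HNK-1 carbohydrate, Macir (0.94) and the orphan nuclear receptor gene Nr4a3 (0.92). Msx1 was most like the transcription factor gene Ets1 (0.91), Bmper (0.91), which encodes a BMP-binding protein, and Dzip3 (0.90), and Pax7 was most like the Notch ligand gene Jag1 (0.92), Ets1 (0.91) and Ly6k (0.87). Ets1 had mean signals of 62.6, 25.1, 16.7, 19.4, 26.6 and 89.5 in parts 1 to 6. It was picked by its likeness to Msx1 and Pax7 on these arrays, so its low middle is no separate support for theirs. For Msx2 the genes were Spout1 (0.931), Camkv (0.925) and Ints7 (0.923), and for Atoh1 Aldh1l2 (0.858), St8sia4 (0.852) and Slc9a3r2 (0.852), although neither member's own course passed a test. With the mean of all kept probe sets of a gene, r was 0.251 for Dzip3, 0.340 for Slc9a3r2, 0.571 for Camkv and 0.558 for Ints7.

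Other dorsal genes also split by course. Of 9 roof plate and dorsal signal genes, 6 were tested, of which 2 rose, 2 fell and 2 did not pass, with a median slope of -0.08. Wnt1, a roof plate signal, had means of 4.67, 5.75, 8.65, 13.7, 39.7 and 52.1 in parts 1 to 6 and a slope of 0.57 ± 0.061 log2 per part (limma adjusted p = 4.64e-05), and Bmp6 had one of 0.27 ± 0.062 (0.0111). The Wnt1 means of parts 1 to 4 lay under the array medians (16.7 to 19.1). Bmp6 means were 5.28, 5.54, 5.44, 11.6, 19.0 and 14.6, none above that range, and the F test did not call Bmp6 (limma adjusted p = 0.15). Bmp7 fell, at -0.13 ± 0.034 (0.0265), a call lost without any 1 of 3 arrays (up to 0.0977). The other that fell, Wnt3a, is also known from the caudal growth zone, and its means were 227, 90.0, 20.1, 24.1, 26.4 and 37.3 (slope -0.49 ± 0.14, 0.0399).

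Of 13 dorsal progenitor partners, 7 were tested, of which 4 rose, 0 fell and 3 did not pass, with a median slope of 0.29. Zic1, a zinc finger gene of dorsal progenitors, had a slope of 0.90 ± 0.14 (limma adjusted p = 0.000978), and the proneural genes Neurog1 and Neurog2 had slopes of 0.91 ± 0.11 and 1.09 ± 0.094. Zic1 stayed between 1.53 and 6.84 on average in parts 1 to 4 and reached 33.6 in part 5 and 165 in part 6, its highest pieces. The 3 that did not pass by slope were Id1, Zic2 and Zic5. Zic5 had means of 216 in part 1, 1003 in part 3 and 449 in part 6 (limma F test adjusted p = 0.0409). Zic2 was also highest in part 3, with 18.2, 72.1 and 51.8 in the same pieces (limma F test adjusted p = 0.0705). Among 12 genes of early dorsal neurons, 10 were not tested, among them the Atoh1-lineage genes Lhx2, Lhx9, Barhl1 and Barhl2, and of the other 2, Pou4f1 rose (0.20 ± 0.050, 0.0186), a call lost without either array of part 6 (0.0717 without replicate 1 and 0.0558 without replicate 2).

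For comparison, of 11 ventral and intermediate progenitor genes 8 were tested, of which 7 rose and 0 fell, with a median slope of 0.66, among them Irx3 (1.18 ± 0.13 log2 per part), Pax6 (0.84 ± 0.093) and Nkx6-1 (0.85 ± 0.095). All 8 general neural progenitor genes were tested, of which 6 rose, such as Sox1 (0.72 ± 0.10), Sox21 (0.75 ± 0.072) and Rfx4 (1.34 ± 0.12), 0 fell and 2 did not pass, and their summed signal was 4656 and 4819 in part 6, against 1161 and 1130 in part 1. The 2 that did not pass by slope were Nes and Fabp7. Fabp7 went the other way, with means of 518 in part 1, 19.4 in part 3 and 51.5 in part 6 (limma F test adjusted p = 0.0291). Of 10 neural crest genes, whose precursors lie in the dorsal midline, 3 rose, 0 fell and 7 did not pass. Those that rose included Foxd3 (0.79 ± 0.092) and Cdh6 (0.52 ± 0.093), whose call was lost without part 1 (limma adjusted p = 0.0801). The third, Tfap2b (0.44 ± 0.13, limma adjusted p = 0.0442), lost its call without any 1 of 8 arrays. The uncalled slopes were -0.20 for Snai1, -0.09 for Snai2, -0.19 for Tfap2a and -0.18 for Erbb3. They were 0.39 for Sox9, 0.02 for Sox10 and 0.08 for Ets1, and no direction is read from these uncalled slopes. The slopes of Pax3 and Msx3 therefore stood beside a rise of many neural progenitor genes, and whether they differ from it was not tested. Of 9 brain and hindbrain genes 3 were tested and 1 fell, the autonomic factor Phox2a (-0.32 ± 0.062), whose call was lost without part 1 (limma adjusted p = 0.103).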

How the data were processed

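Total RNA of 12 dissected pieces was labelled with 2 rounds of amplification, which favours 3′ ends, and hybridised to Affymetrix arrays, per the labels' protocols. The authors deposited linear signal intensities from MAS5, as the submitters' processing notes name it, with settings not given in the sources used here. Each array's mean, with the top and bottom 2% of probe sets left out, was 100. The number of arrays limits the precision.

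After 64 controls were set aside from 45101 probe sets, the platform annotation named 1 gene on 34945 probe sets, several genes on 932 and no gene on 9160, and symbols were updated by Entrez identifier through the RefSeq gene table (34741 matched). Probe sets above their array's median on at least 2 arrays were kept (21679), and the brightest kept one stood for its gene (12089). The offset of 4.43 is 0.25 of the median signal. limma 3.58.1 (R 4.3.3) fitted a slope on part number, and separately a coefficient per piece for the F test and contrasts, with Benjamini-Hochberg adjustment over all genes at 0.05, and was tested on simulated data. Alternatives varied the offset, filter, normalization, probe set rule, block and arrays.

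Named genes were all members, the 3 genes with the highest r to each tested member, and up to 3 genes per list with the smallest slope p. Wnt3a and genes given as not tested were added after values were seen. The members and lists were chosen with earlier results of these data known. The design text gives 2 embryos. Deviations from the piece means correlated between arrays of the same number in 15 of 15 pairs of pieces (0.183 to 0.335), so the numbers were taken as embryos. Pieces of 1 embryo are not independent, and p-values rest on 2 embryos.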

Additional observations from a re-analysis of the deposited data

How the results depend on the processing

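The slope test called 1540 genes, 903 without part 1, 976 without part 6, 1018 without replicate 1 of parts 1 and 2 (an alternative chosen after seeing the data), and 1177 to 1542 on leaving out 1 array. The F test called 594 genes, 306 without part 1, 329 without part 6 and 344 to 566 on leaving out 1 array. Part 6 against part 1 called 1099 and 487 to 1305 on leaving out 1 array. The 5 steps called 56 genes in all, 94 with an offset of 16, 21 with no filter, 114 with the filter at the 75th percentile, 20 without part 1, 29 without part 6, 20 without replicate 1 of parts 1 and 2, and 21 to 133 on leaving out 1 array. Ends against middle called 125 genes, 80 with no filter and 59 to 168 on leaving out 1 array. The slope difference between embryos called 0 genes by limma in each of 22 alternatives, with 491 to 1293 at an unadjusted p under 0.05. With the replicate block the steps called 87 genes, and besides the call for Msx1 given above the block changed no call of a member or of a called list gene named by the rule, while Wnt3a was not run under the alternatives.

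Among the members, the slope (23 alternatives) and part 6 over part 1 (21) of Pax3 and the F test (23) and part 6 over part 1 (21) of Olig3 kept their direction and call under all alternatives run, as did the F test of Pax7 (22). Uncalled values changed sign in a few. The slope of Pax7 (-0.09) ran from -0.24 to 0.093 on leaving out 1 array, and was 0.34 without part 1 and 0.076 without replicate 1 of parts 1 and 2. Part 6 over part 1 for Pax7 ran from -0.90 to 0.021 on leaving out 1 array and was 0.021 without replicate 1 of parts 1 and 2. The slope of Msx1 (0.08) was -0.074 without part 6. The ends against the middle ran from -0.21 to 0.046 for Pax3 on leaving out 1 array and were 0.079 for Msx2 with the mean of its probe sets. The causes were not tested. Low signals limit Pax7, Atoh1 and Lmx1a.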
